A study of Mus musculus with 12 samples.

Results

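The 10 genes described here are regulators of the muscle lineage and proteins of the muscle cell: Pax3, Pax7, Myf5, Myod1, Myog, Mylpf, Actc1, Acta1, Tnnt2 and Des. They were taken by symbol from the probe annotation, out of 18193 genes that a probe set of the array names alone, and they have 17 probe sets among 45101. Of the 10 genes, 5 have 1 probe set, 3 have 2 and 2 have 3. RNA was measured on 12 mouse expression arrays in 4 groups of 3. The groups were kidney RNA bought from Ambion at an input of 10 ng, and a universal mouse reference RNA (its supplier is spelt Strategene) at inputs of 0.3, 3 and 10 ng. The series title speaks of comparing ways to amplify nanogram amounts of RNA, and all sample titles hold the code pRS, left unexplained. The labels give no strain, age, sex or number of animals for the kidney RNA and no composition for the reference RNA, and they do not say what separates replicates, so p-values below reflect array-to-array spread alone.

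In the embryo, Pax3 and Pax7, paired-box transcription factors, mark the progenitors of skeletal muscle. Myf5 and Myod1, basic helix-loop-helix factors, commit such cells to the muscle fate, and Myog, of the same family, drives their differentiation. Differentiated fibres then express contractile genes: Mylpf encodes a regulatory light chain of fast skeletal myosin, Acta1 the skeletal and Actc1 the cardiac alpha actin, and Tnnt2 the cardiac troponin T, while Des encodes desmin, the intermediate filament of muscle. Cardiac forms of actin and troponin T are also made in embryonic skeletal muscle, and Pax3 is expressed in neural crest as well. In adult kidney, muscle is found mainly as smooth muscle of the vessels and urinary tract.

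Every array had the same 2% trimmed mean signal of 500, and signals below are in units of that scale. Background was set at 33.7, below which 95% of the signals of 27 control probe sets for Bacillus transcripts fell. The kidney label was checked against its markers: all 7 measured kidney genes of a list of 8 lay above background on every kidney array, with a summed signal of 38333 to 39278, against 94 to 182, 154 to 201 and 165 to 189 on the arrays of reference RNA at 0.3, 3 and 10 ng. The median SD of log2 signals between arrays was 0.26 for kidney RNA, and 0.69, 0.31 and 0.24 for reference RNA at 0.3, 3 and 10 ng. Pairs of arrays within a group correlated at 0.9423 to 0.9647, except those of reference RNA at 0.3 ng, at 0.8274 to 0.8631.

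Pax3, Myf5 and Myog, regulators of the muscle lineage, were present in reference RNA and below background in kidney RNA, whereas cardiac actin went the other way. Between kidney and reference RNA at 10 ng, Myf5 was at least 41.3-fold, Pax3 at least 38.0-fold and Myog at least 2.97-fold lower in kidney, Mylpf was lower by 3.94 on the log2 scale, and Actc1 rose by 3.55. These 5 genes were called with the same direction against reference RNA at 3 and at 0.3 ng. Pax7 and Acta1 gave almost no signal above background in either RNA. Since RNA of whole tissue and of a pool was measured, fewer cells of a type and less RNA per cell cannot be told apart.

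Tests were run on probe sets whose brightest group averaged more than 65.4, the 40th percentile over all probe sets. Of the 10 genes, 7 passed through their brightest probe set, and Pax7, Acta1 and Des did not. limma called all 7 between kidney and reference RNA at 10 ng at an adjusted p under 0.05, 1 higher and 6 lower, where 62.7% of the 12820 tested genes were called, 27.1% higher and 35.6% lower. Genes that passed the filter because 1 group was bright had to differ, so the count of 7 is a description only. With no filter, 5 of all 10 genes, each by its brightest probe set, were called (Pax3, Myf5, Myog, Mylpf and Actc1). Of 45037 probe sets 33.3% were called, a share that includes dimmer probe sets of the same genes and is not counted by gene. The arrays of the 2 groups did not overlap for the 7 genes, as for 73.2% of tested genes. The median log2 fold change of the 7 was −3.68, against −0.19 over all tested genes, and is likewise a description only. It is the value of Myog, whose kidney signals lay below background, and so depends on how such signals are treated. With signals below background raised to it, Myog was at −1.47. Of all tested probe sets, 60.1% were called: 6201 were higher and 10045 lower in kidney, or 7540 and 7805 after each array was centred on its median.

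**Figure D1:**
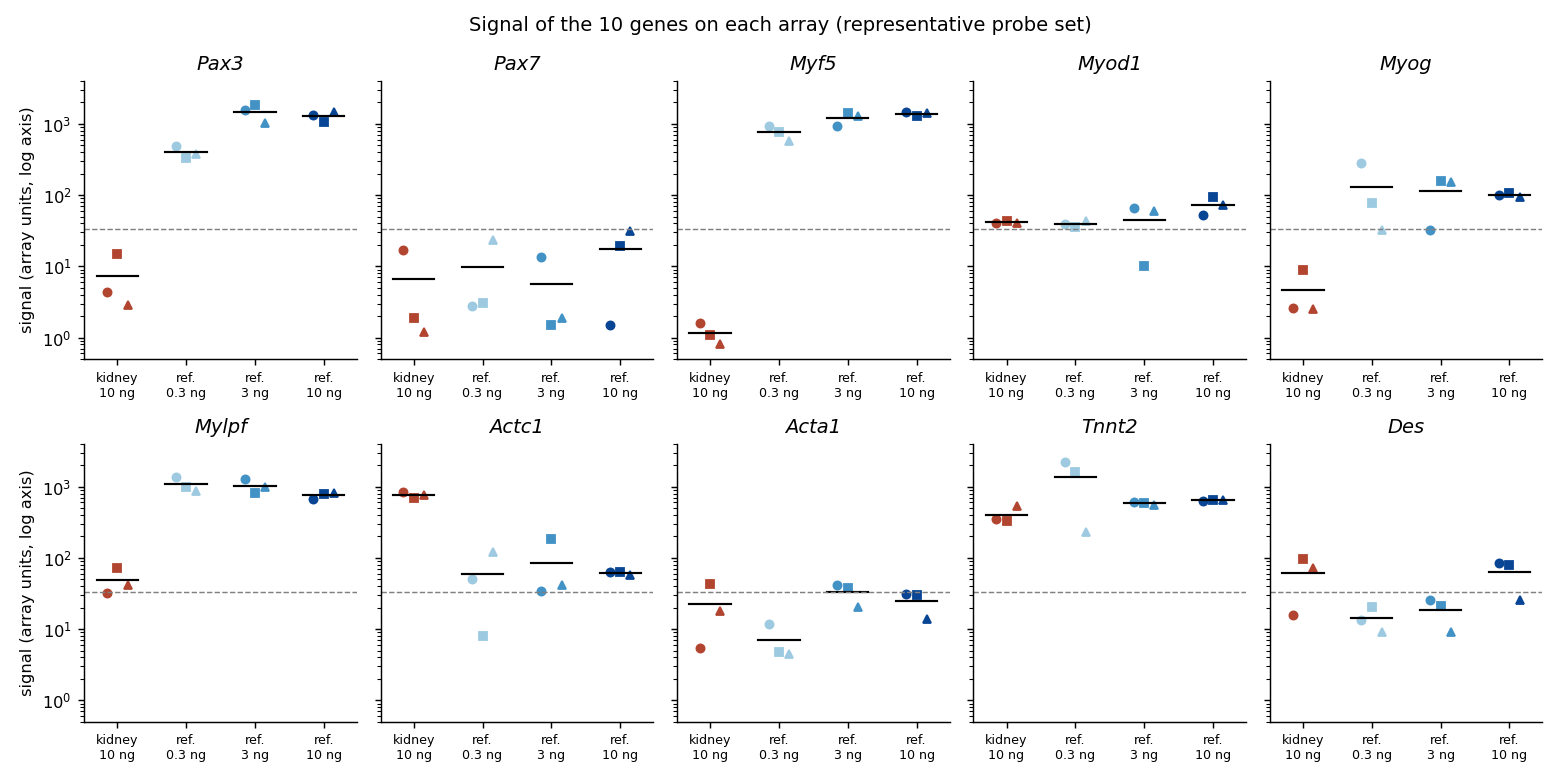
Signal of the 10 genes, each by its brightest probe set, on every array (points: circle, square and triangle for replicates 1, 2 and 3; bars: arithmetic means; log axis; dashed line: background of 33.7). Pax3, Myf5 and Myog lie below background on all 3 kidney arrays, Actc1 is highest in kidney, and Pax7 stays below background on every array.

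Pax3, the progenitor factor, separated kidney from reference RNA at every input. Its brightest probe set (1441743_at) measured 4.4, 14.8 and 2.9 on the kidney arrays, against 483.1, 331.8 and 384.0 in reference RNA at 0.3 ng, 1591.5, 1818.3 and 1043.1 at 3 ng, and 1330.1, 1059.0 and 1482.2 at 10 ng. All kidney values lay below background and all reference values well above it, those at 0.3 ng below those at the higher inputs. Kidney was at least 11.7-fold lower than reference RNA at 0.3 ng (adjusted p = 0.000721), 42.9-fold at 3 ng (0.000126) and 38.0-fold at 10 ng (7.91e-05). A second probe set of Pax3 (1420389_at) measured 1.8, 2.2 and 9.8 in kidney, against 150.9, 435.2 and 274.6 at 0.3 ng, 171.1, 185.2 and 127.4 at 3 ng, and 137.3, 151.3 and 133.8 at 10 ng. It was at least 7.79-fold, 4.73-fold and 4.18-fold lower in kidney against the reference at 0.3, 3 and 10 ng. The third (1430335_a_at) averaged 2.90 ± 1.25 in kidney, against 47.8 ± 39.7, 44.1 ± 22.8 and 45.2 ± 13.6 in reference RNA at 0.3, 3 and 10 ng (SD, n = 3 arrays each), too close to background to pass the filter.

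Pax7, the paired-box factor that marks satellite cells in adult muscle, was not seen above background in reference RNA. Its brighter probe set measured 1.2 to 16.8 in kidney, and 2.8 to 23.3, 1.5 to 13.7 and 1.5 to 31.0 in reference RNA at 0.3, 3 and 10 ng. The other measured 2.2, 35.1 and 3.4 in kidney and at most 7.4 on any reference array. Only 1 of these 24 values, that of kidney replicate 2, exceeded background.

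Of the helix-loop-helix factors, Myf5 had the clearest contrast. It measured 1.6, 1.1 and 0.8 in kidney, against 944.6, 776.0 and 573.4 in reference RNA at 0.3 ng, 943.1, 1425.4 and 1289.7 at 3 ng, and 1477.0, 1282.4 and 1416.5 at 10 ng. The kidney values were far below background and the reference values fell into 1 range, with the 0.3 ng arrays at its lower end. Kidney was at least 22.3-fold (adjusted p = 7.89e-05), 35.7-fold (1.03e-05) and 41.3-fold lower (3.81e-06) than reference RNA at 0.3, 3 and 10 ng.

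Myog, the differentiation factor, was also separated, with a wide spread at the lower inputs. It measured 2.6, 8.8 and 2.5 in kidney, against 284.5, 78.0 and 32.9 at 0.3 ng, 32.7, 158.0 and 154.0 at 3 ng, and 99.4, 106.6 and 93.9 at 10 ng. The 10 ng arrays were close together, while 1 array at each lower input lay just under background. Kidney was at least 2.68-fold lower than the reference at 0.3 ng (adjusted p = 0.0197), 2.75-fold at 3 ng (0.00584) and 2.97-fold at 10 ng (0.000234). With signals below background raised to it, the calls against 0.3 and 3 ng were lost (adjusted p = 0.211 and 0.0852). The call against 0.3 ng was also lost without kidney replicate 1 or 3 (adjusted p = 0.0719 and 0.0716).

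Myod1 stayed close to background in all groups. Its brighter probe set measured 40.2, 42.9 and 41.2 in kidney, against 38.8, 35.5 and 43.0 at 0.3 ng, 66.0, 10.2 and 59.9 at 3 ng, and 52.0, 93.8 and 72.7 at 10 ng. Kidney was lower than reference RNA at 10 ng by a log2 fold change of −0.72 ± 0.22 (SE; adjusted p = 0.0336), and the arrays did not overlap. The same probe set was not called against reference RNA at 3 ng (0.19, 95% interval −1.38 to 1.76) or at 0.3 ng (0.08, −0.43 to 0.59). The median of all tested probe sets was itself shifted by −0.34 in the 10 ng comparison, and by −0.09 after each array was centred on its median. With centring the fold change of Myod1 was −0.48 (adjusted p = 0.13). The call was also lost without any 1 kidney replicate and without replicate 2 or 3 of the reference at 10 ng, with adjusted p from 0.0639 to 0.0867. The other probe set of Myod1 lay between 0.6 and 30.0 on all 12 arrays, below background.

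Among the contractile genes, Mylpf was lower in kidney at every reference input. It measured 32.3, 70.9 and 41.2 in kidney, against 1373.1, 995.8 and 854.5 at 0.3 ng, 1286.2, 817.1 and 990.5 at 3 ng, and 676.3, 790.2 and 813.7 at 10 ng. Kidney values lay around background, far below every reference array. The log2 fold changes were −4.41 ± 0.37 (SE; adjusted p = 0.000706), −4.36 ± 0.33 (0.000233) and −3.94 ± 0.29 (0.00017) against the reference at 0.3, 3 and 10 ng.

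Actc1 was higher in kidney. It measured 845.7, 682.0 and 770.2 in kidney, against 50.3, 8.0 and 121.1 at 0.3 ng, 33.7, 181.3 and 42.2 at 3 ng, and 63.1, 64.3 and 57.7 at 10 ng. No kidney array overlapped a reference array. The log2 fold changes were 4.15 ± 0.85 (SE; adjusted p = 0.0152; 3.60 with signals below background raised to it), 3.49 ± 0.62 (0.00515) and 3.55 ± 0.14 (2.47e-05) against the reference at 0.3, 3 and 10 ng. The call against 0.3 ng was lost without any 1 of the kidney replicates (adjusted p = 0.0516 to 0.0571).

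Acta1, the skeletal actin, gave no such contrast. It measured 5.5, 43.0 and 17.9 in kidney, against 11.9, 4.8 and 4.4 at 0.3 ng, 41.9, 37.5 and 20.1 at 3 ng, and 31.5, 30.1 and 13.8 at 10 ng. Just 3 of the 12 values exceeded background, so no fold is given. Without the filter, its adjusted p was 0.345, 0.423 and 0.697 for kidney against the reference at 0.3, 3 and 10 ng.

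The sequences of 4 promoters are shown because these genes went opposite ways (Myog and Mylpf lower in kidney, Actc1 higher) or, for Acta1, encode the other striated muscle actin. RefSeq promoter windows on GRCm38.p6 were found for 8 of the 10 genes, in 9 windows, and not for Pax3 and Myod1. Each sequence is the 250 bases before the start given for a transcript, 5′ to 3′ on the gene's strand, with 2 motifs in capitals: the E-box CANNTG, bound by helix-loop-helix factors, and the CArG box, bound by serum response factor. Both read the same on either strand, and in these windows they do not overlap.
Myog (chr1:134289754-134290003, plus strand): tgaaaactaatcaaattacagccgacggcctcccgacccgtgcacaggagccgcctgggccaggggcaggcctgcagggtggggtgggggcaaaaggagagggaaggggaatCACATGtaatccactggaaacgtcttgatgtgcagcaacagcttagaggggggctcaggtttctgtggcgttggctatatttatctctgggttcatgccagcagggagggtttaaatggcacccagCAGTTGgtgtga
Mylpf (chr7:127211358-127211607, plus strand): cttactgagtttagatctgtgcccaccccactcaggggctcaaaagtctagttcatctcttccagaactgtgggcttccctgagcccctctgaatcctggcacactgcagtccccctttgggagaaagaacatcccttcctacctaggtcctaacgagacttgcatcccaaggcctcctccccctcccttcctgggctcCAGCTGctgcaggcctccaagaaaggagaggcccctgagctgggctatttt
Actc1 (chr2:114052876-114053125, minus strand): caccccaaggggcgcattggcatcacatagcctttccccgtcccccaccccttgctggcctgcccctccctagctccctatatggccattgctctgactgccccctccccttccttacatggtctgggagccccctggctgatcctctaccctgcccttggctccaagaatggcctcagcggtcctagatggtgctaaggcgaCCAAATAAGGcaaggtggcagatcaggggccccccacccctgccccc
Acta1 (chr8:123894776-123895025, minus strand): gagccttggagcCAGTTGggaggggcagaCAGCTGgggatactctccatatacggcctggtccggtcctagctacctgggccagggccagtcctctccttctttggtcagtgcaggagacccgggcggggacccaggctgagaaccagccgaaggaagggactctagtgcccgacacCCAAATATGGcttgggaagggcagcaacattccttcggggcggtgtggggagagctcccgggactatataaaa
The E-boxes start 138 and 12 bases before the start of Myog, 51 before that of Mylpf, and 238 and 221 before that of Acta1. The CArG boxes start 47 bases before the start of Actc1 and 73 before that of Acta1. An E-box was present in 6 of the 9 windows of the muscle genes and in 66.2% of all 32851 windows of the table, so the members are near the general share. A CArG box was present in 2 of the 9 and in 1.47% of all. A match is a description of letters and not a bound site.

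**Figure D2:**
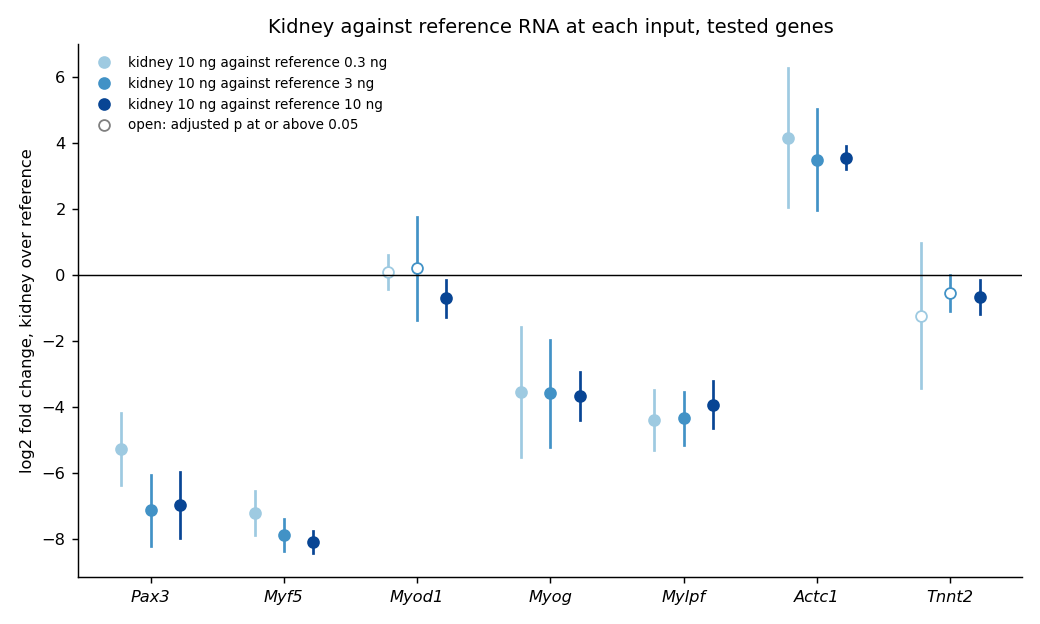
Log2 fold changes of kidney over reference RNA at each reference input for the 7 tested genes (points: limma estimates; bars: 95% intervals; filled: adjusted p under 0.05). Pax3, Myf5, Myog and Mylpf lie below 0 and Actc1 above 0 at all 3 inputs, while Myod1 and Tnnt2 are filled only against 10 ng. For Pax3, Myf5 and Myog the kidney signal is below background, so the plotted estimates depend on the pseudocount of 3.9 and are not bounds.

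Tnnt2 was expressed in both RNAs. Its brightest probe set (1418726_a_at) measured 350.8, 332.4 and 533.1 in kidney, against 2231.4, 1610.3 and 230.5 at 0.3 ng, 610.2, 581.2 and 560.8 at 3 ng, and 635.6, 640.7 and 647.4 at 10 ng. The 3 arrays at 10 ng were close together, while those at 0.3 ng lay on either side of all other groups. Kidney was lower than the reference at 10 ng by a log2 fold change of −0.69 ± 0.21 (SE; adjusted p = 0.0312) without overlap. Against 3 ng it was not called (−0.55, 95% interval −1.09 to −0.02, adjusted p = 0.0728), nor against 0.3 ng (−1.24, −3.43 to 0.95). Without replicate 3 of the reference at 0.3 ng the last became −2.25 (adjusted p = 0.00934), and without kidney replicate 3 the difference from 3 ng became −0.77 (0.017). The call at 10 ng was lost after median centring (−0.44, adjusted p = 0.141), without kidney replicate 1 or 2, and without any 1 of the 10 ng reference arrays (adjusted p = 0.0763 to 0.0883). A second probe set (1424967_x_at) measured 218 ± 58.8 in kidney, against 345 ± 202, 219 ± 34.8 and 218 ± 32.3 in the reference at 0.3, 3 and 10 ng (SD, n = 3), with a log2 fold change of −0.02 (−0.60 to 0.55) at 10 ng, so the lower kidney signal was not seen with it. The third lay between 3.3 and 53.9 on all arrays.

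Des, which encodes desmin, was near background. Its brighter probe set measured 15.6, 96.4 and 72.5 in kidney, against 13.6, 20.4 and 9.2 at 0.3 ng, 25.5, 20.8 and 9.0 at 3 ng, and 85.3, 80.3 and 25.8 at 10 ng. Values above background were thus seen on 2 kidney arrays and 2 reference arrays at 10 ng, and on none of the 6 arrays at the lower inputs. Without the filter, the log2 difference of reference RNA at 0.3 ng from 10 ng was −1.77 ± 0.53 (SE; adjusted p = 0.269), and of kidney from the reference at 10 ng −0.19 ± 0.76 (0.877). The other probe set of Des lay below background on all 12 arrays, between 2.0 and 25.4.

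Against reference RNA at 3 ng, limma called 5 of the 7 tested genes (57.8% of all tested genes), and against 0.3 ng again 5 (37.6%). In both, Pax3, Myf5, Myog and Mylpf were lower in kidney and Actc1 was higher. The arrays did not overlap for 6 genes against 3 ng (69.6% of tested genes) and for 5 against 0.3 ng (57.7%). The 3 kidney comparisons share the kidney arrays, and at 3 and 0.3 ng the RNAs differ in input as well as in source. The count against 0.3 ng was 3 without kidney replicate 1 or 3. The share of all tested probe sets called there fell as well, from 34.8% to 20.4% and 20.5%.

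Within reference RNA, none of the genes was called between inputs. Between 3 and 10 ng, limma called 0 of the 7, and 0% of all tested genes. None of the 7 had an unadjusted p under 0.05 (8.46% of tested genes did), and the arrays did not overlap for 2 (17.6% of tested genes). Between 0.3 and 10 ng, 0 of 7 were called (0.554% of tested genes), 3 had an unadjusted p under 0.05 (13.4%), and the arrays did not overlap for 4 (25.2% of tested genes). Between 0.3 and 3 ng, 0 of 7 were called (0.172%), 1 had an unadjusted p under 0.05 (10.9%), and the arrays did not overlap for 1 (21.5%). These tests take 1 variance for groups whose spread differs, and the wide intervals leave room for large changes.

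Pax3 came nearest to a change with input, and its 2 brighter probe sets went opposite ways on average. The brightest probe set averaged 400 ± 76.9 in reference RNA at 0.3 ng, against 1290 ± 214 at 10 ng (SD, n = 3), a log2 fold change of −1.68 ± 0.27 (SE; adjusted p = 0.0692), and −1.86 ± 0.32 against 3 ng (0.109). The call against 10 ng was made with all 12 arrays in 1 fit (adjusted p = 0.0313), with signals below background raised to it (0.0358) and without replicate 1 at 0.3 ng (0.048). Centring the arrays on their medians moved the median of all tested probe sets between 0.3 and 10 ng to 0.20, against −0.23 without it, and the fold change of Pax3 to −1.25 (adjusted p = 0.167). The second probe set averaged 287 ± 143 at 0.3 ng, against 141 ± 9.26 at 10 ng, a log2 fold change of 0.88 (95% interval −0.14 to 1.90; adjusted p = 0.382). The log2 difference between the 2 probe sets within an array was 0.58 ± 1.02 at 0.3 ng, 3.15 ± 0.14 at 3 ng and 3.15 ± 0.34 at 10 ng (SD, n = 3). This comparison, chosen after the values were seen, gave p = 0.1 against either input by a two-sided exact permutation test, the smallest p that 3 against 3 arrays allow. Over the 9 reference arrays the log2 signals of these probe sets correlated at r = −0.70, whereas the 2 brighter probe sets of Tnnt2 correlated at 0.94. The arrays share their input groups, and these correlations are descriptions.

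**Figure D3:**
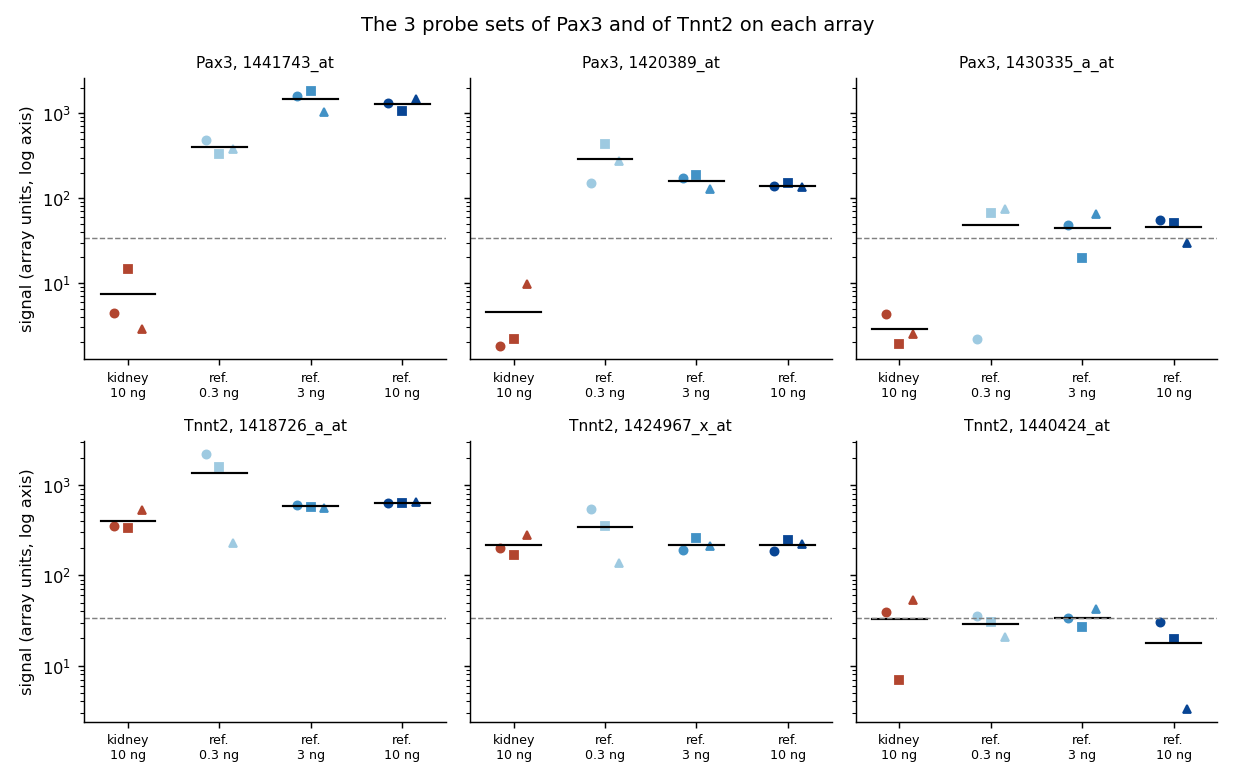
Signals of the 3 probe sets of Pax3 (top) and of Tnnt2 (bottom) on every array (points: circle, square and triangle for replicates 1, 2 and 3; bars: arithmetic means; log axis; dashed line: background). At 0.3 ng the first Pax3 probe set is lower and the second higher on average than at 10 ng, and the first 2 Tnnt2 probe sets are both lowest on replicate 3.

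The other tested genes had smaller fold changes between 0.3 and 10 ng. Myf5 averaged 765 ± 186 in reference RNA at 0.3 ng, against 1219 ± 249 at 3 ng and 1392 ± 99.6 at 10 ng, with a log2 fold change of −0.89 ± 0.27 (SE; adjusted p = 0.214) between 0.3 and 10 ng and no overlap. Mylpf averaged 1074 ± 268, 1031 ± 237 and 760 ± 73.5 at 0.3, 3 and 10 ng, with a log2 fold change of 0.47 ± 0.27 (SE; adjusted p = 0.465) between 0.3 and 10 ng, so these 2 genes had opposite signs and neither was called. Their order of means was 10, 3 and 0.3 ng for Myf5, whose neighbours overlapped, and 0.3, 3 and 10 ng for Mylpf, where 3 and 10 ng did not overlap. For Myog the log2 fold change between 0.3 and 10 ng was −0.12, with an interval from −1.94 to 1.70, and for Tnnt2 0.55, from −1.56 to 2.67. For Myod1 it was −0.80 (−1.51 to −0.10; adjusted p = 0.273), without overlap, and for Actc1 −0.60 (−2.67 to 1.47).

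The spread between arrays grew as input fell. Over the 9 tested probe sets of these genes the median SD of log2 signals was 0.75 in reference RNA at 0.3 ng, 0.33 at 3 ng and 0.10 at 10 ng, with 0.37 in kidney. Over all 27022 tested probe sets it was 0.69, 0.31 and 0.24 at those inputs, and 0.26 in kidney. The highest SD among the 9 was 1.76 at 0.3 ng, that of Tnnt2, 1.30 at 3 ng and 0.40 at 10 ng, both that of Myod1.

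Other genes of muscle sarcomeres went both ways. Of 41 listed, 27 were tested, and 9 rose and 13 fell in kidney against the reference at 10 ng, with a median log2 fold change of −0.09 (−0.19 over all tested genes, of which 27.1% rose and 35.6% fell). Against 3 ng 11 rose and 9 fell (median 0.40, −0.17 over all genes). At 0.3 ng 12 rose and 6 fell (1.18, 0.05 over all genes). Of all 27022 tested probe sets, 6201 rose and 10045 fell against 10 ng. Against 3 ng these counts were 5886 and 9422, and against 0.3 ng 4904 and 4510. The balance of the list thus differed with the reference input, as did that of all probe sets. Myh6, the alpha cardiac myosin heavy chain, measured 243.1, 1241.6 and 376.1 in kidney, against 3.6, 1.4 and 18.2 in the reference at 10 ng, at least 14.4-fold higher (adjusted p = 0.00176). Myl2, the ventricular and slow light chain, measured 1561.0, 1608.3 and 1722.4 against 36.4, 64.5 and 21.3 (log2 fold change 5.31; adjusted p = 0.000136). Tnni3, cardiac troponin I, measured 284.6, 272.3 and 205.5 against 34.3, 23.0 and 5.7 (2.76 with signals below background raised to it; 0.0022). Ankrd1, a cardiac ankyrin repeat protein also made in other cells, went the other way, with 207 ± 51.5 in kidney and 3620 ± 127 in the reference (−4.13; SD, n = 3). Mybpc3, cardiac myosin-binding protein C, fell as well (−2.18), while the cardiac genes Myl3 (2.78 with signals raised to background) and Csrp3 (3.05) rose. These 3 genes were picked with their values in view, as were the skeletal genes that fell: Actn3 at least 4.99-fold, Tnni2 at least 4.08-fold, Tnnt3 at least 3.22-fold, and Tnnt1 by a log2 fold change of −2.51. Genes of striated muscle went the other way too, also picked by value. Tcap averaged 91.7 in kidney and 33.2 in the reference at 10 ng. In the metabolism list below, Pgam2 averaged 1322 against 230 and Mb 476 against 60.9, while Eno3 was lower in kidney (178.5 against 779.5).

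A short list of 5 cardiac genes (Myh6, Myl7, Nppa, Tnni3 and Myl2) had a summed signal of 2325 to 3322 on the kidney arrays, against 72 to 181, 114 to 214 and 98 to 115 in the reference at 0.3, 3 and 10 ng. Most of the kidney sum came from Myl2 and Myh6, described above. In kidney 4 of the 5 lay above background on every array, and Myl7, an atrial light chain, measured 100.5, 48.2 and 16.3. Nppa, atrial natriuretic peptide, measured 136.2, 151.6 and 135.5 in kidney, and at 3 ng the reference reached 159.6, so it did not separate the RNAs at all inputs. A list of 5 skeletal genes (Ckm, Acta1, Mylpf, Tnnc2 and Myh4) summed to 85 to 150 in kidney, against 924 to 1476, 998 to 1457 and 826 to 954 in the reference. Mylpf, described above, averaged 760 at 10 ng, so this contrast mostly repeats its own. Ckm, the muscle creatine kinase, did not exceed 59.7 on any array, and Myh4, a fast myosin heavy chain, did not exceed 55.8. Actc1, Myh6, Tnni3 and Myl2 were high on the same arrays, whereas Ankrd1 and Mybpc3, given above, were lower in kidney. The part of any other tissue in the kidney RNA was not tested. Of 4 smooth muscle markers, Acta2 measured 1938 ± 145 in kidney and 6792 ± 347 in the reference at 10 ng (SD, n = 3), and Tagln 394 ± 74.5 against 1454 ± 186, while Myh11 measured 233 ± 19.6 against 37.0 ± 10.4. Cnn1, with 16.9 ± 19.7 against 6.83 ± 3.84, was too dim to pass the filter.

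**Figure D4:**
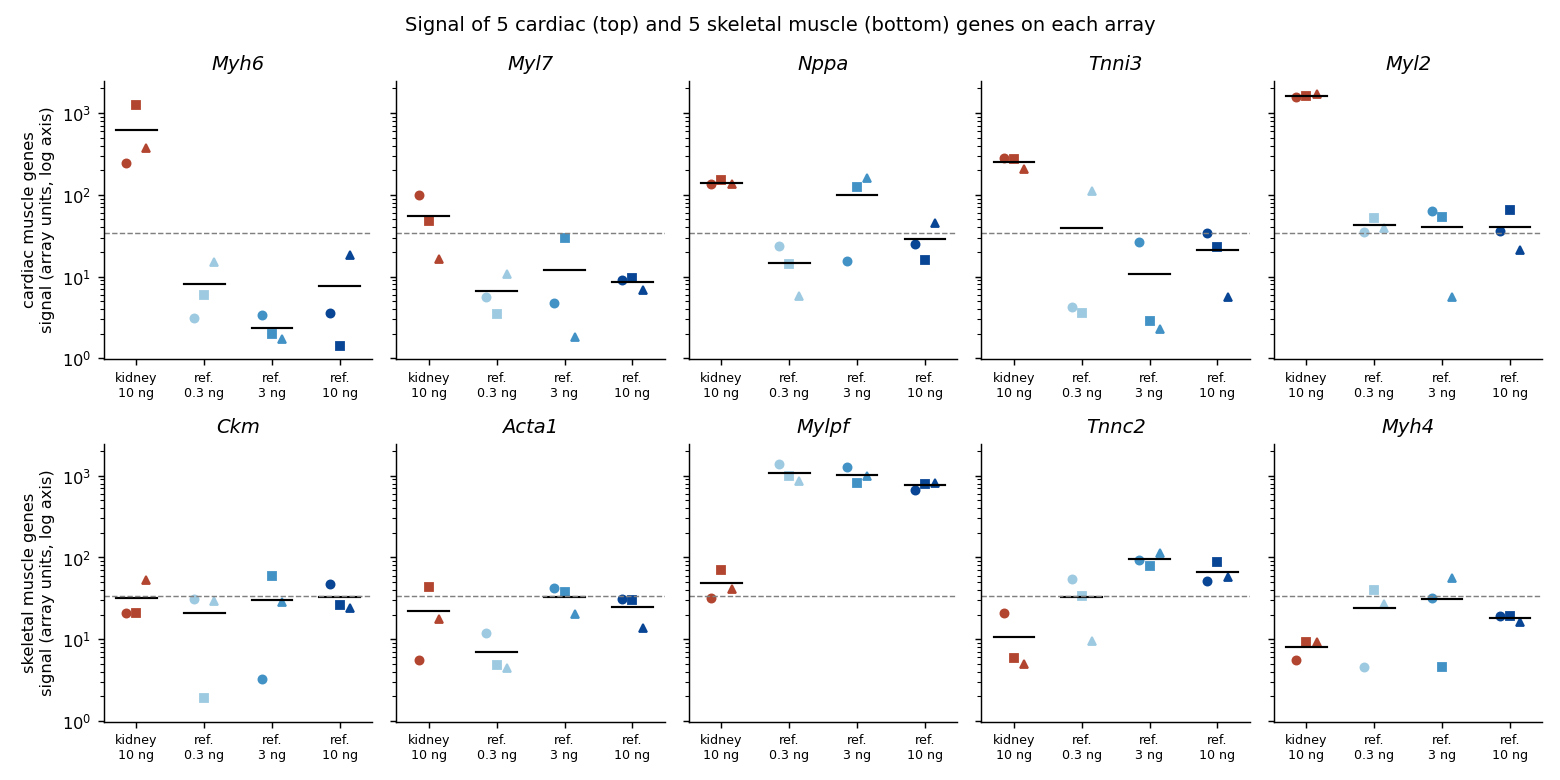
Signals of 5 cardiac genes (top) and 5 skeletal muscle genes (bottom) on every array (points: circle, square and triangle for replicates 1, 2 and 3; bars: arithmetic means; log axis; dashed line: background). Myh6, Tnni3 and Myl2 are above all reference arrays in kidney, whereas Mylpf and, at 3 and 10 ng, Tnnc2 are above all kidney arrays in the reference.

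Genes that work with the regulators were counted in the same way. Of 28 other myogenic factors and partners, 22 were tested, and 4 rose and 15 fell against the reference at 10 ng, with a median log2 fold change of −1.09, beside −0.19, 27.1% higher and 35.6% lower over all genes tested. Against 3 ng 3 rose and 14 fell, and against 0.3 ng 2 rose and 8 fell. Of all tested genes, 57.8% were called in either direction against 3 ng and 37.6% against 0.3 ng. In the latter comparison 4904 of all tested probe sets rose and 4510 fell. Mef2b, of the MEF2 family that acts with the helix-loop-helix factors, was at least 6.0-fold lower, and Eya1, a coactivator that acts upstream of Myf5, at least 5.82-fold lower. Twist1, an inhibitor of muscle differentiation, measured 95.9 ± 43.3 in kidney and 684 ± 14.5 in the reference (−2.87; SD, n = 3), and Meox1, a somite homeobox gene, was at least 2.40-fold higher in kidney. Chosen after their values were seen, Id1 and Id3, inhibitors of helix-loop-helix factors, fell (−1.79 and −1.81), while Id2, of the same family, rose (0.68; adjusted p = 0.00665), and Srf, the serum response factor, fell (−1.41). Myocd, its smooth and cardiac muscle coactivator, was called against 10 ng (2.01; adjusted p = 0.011) but not against 3 ng (0.02; 0.963) or 0.3 ng (3.22; 0.0926). Between reference RNA at 0.3 and 10 ng, limma called 1 of the 22 tested genes of this list, and 0.554% of all tested genes. It was Lbx1, a factor of migrating limb muscle progenitors, at least 2.79-fold lower (adjusted p = 0.0335). Lbx1 averaged 7.0 ± 3.68 at 0.3 ng and 96.4 ± 25.8 at 10 ng (SD, n = 3). Without any 1 array at 10 ng, 0 probe sets of the whole table were called in this comparison, Lbx1 included.

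Of 23 genes of the myoblast surface, fusion and the nerve contact, 13 were tested, and 2 rose and 3 fell against the reference at 10 ng (median log2 fold change 0.18). This and the counts of the lists that follow stand beside 27.1% of all tested genes that rose and 35.6% that fell in that comparison. Dmd, which encodes dystrophin, measured 965 ± 115 in kidney and 106 ± 17.2 in the reference at 10 ng (3.15), Dysf 180 ± 35.5 and 54.9 ± 14.95 (1.66), and Ncam1 4384 ± 227 and 13693 ± 309.9 (−1.64; SD, n = 3). Dmd averaged 111 ± 14.9 in the reference at 3 ng but 515.5 ± 255 at 0.3 ng (SD, n = 3), nearer to kidney. Sgcb, a sarcoglycan gene, fell by 0.85 on the log2 scale. The myoblast cadherin Cdh15, chosen after its values were seen, was not called, with 78.1 ± 19.4 in kidney against 59.9 ± 38.9. Of 19 genes of muscle metabolism and calcium handling, 14 were tested, and 7 rose and 1 fell (median 1.5). Pvalb, a calcium-binding protein also known from the distal convoluted tubule, measured 2442 ± 153 against 19.3 ± 27.2 (5.84 with signals raised to background). The mitochondrial creatine kinase gene Ckmt2 was at least 3.82-fold and Cox8b, a cytochrome oxidase subunit of muscle and brown fat, at least 5.26-fold higher in kidney. Pln, phospholamban, measured 463 ± 176 against 32.3 ± 20.2 (3.35 with signals raised to background).

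Of 13 smooth muscle genes, the 4 markers above included, 11 were tested, and 3 rose and 7 fell (median log2 fold change −0.72). Synpo2, an actin-bundling protein gene, and Actg2, the enteric smooth muscle actin gene, fell, with log2 fold changes of −3.54 and −2.44. Synpo2 averaged 63.2 ± 29.7 in kidney and 778 ± 388 in the reference at 10 ng (SD, n = 3). At 3 and 0.3 ng the reference averaged 269 ± 159 and 161 ± 87.2, and the 0.3 ng arrays overlapped kidney. Cnn2, a calponin gene, fell as well (−1.94), and Myh11, the smooth muscle myosin heavy chain gene whose signals are given above, rose (2.57). Of 5 tested cytoplasmic actins and filament genes, Vim, Nes and Lmna fell (−2.02, −1.94 and −1.72), and the actins Actb and Actg1, the other 2 of the 5, were not called (−0.19 each). Of 6 tested neural crest genes, 2 rose and 3 fell. Snai2 and Sox9 fell (−3.57 and −3.28), as Pax3 did, and Ednrb, the endothelin B receptor gene, rose (5.53), as did Kit, at least 3.54-fold. No melanocyte marker of 4 (Tyr, Dct, Pmel and Mlana) lay above background on every array of any group.

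For 4 of the genes (Myf5, Pax3, Mylpf and Actc1), the genes with the most similar log2 signals over all 12 arrays were looked up among 12820. For Myf5 they were Eif4a2, Serpinh1 and Dcbld2 (Pearson r = 0.9973, 0.9953 and 0.9953), and for Pax3 Slc25a24, Tbx18 and Aurkb (0.9908, 0.9908 and 0.9892). For Mylpf they were Ltbp1, Hells and Mzb1 (0.9923, 0.9899 and 0.9897), and for Actc1 Hadhb, Aldh4a1 and Igtp (0.9782, 0.9711 and 0.9634). The arrays share their RNA source and input within groups, so with 60.1% of probe sets called between kidney and reference RNA at 10 ng such high values describe mainly that split. They say nothing of shared control.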

How the data were processed

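Microarray signal intensities were used as deposited in the authors' value table, on a linear scale, for 45101 probe sets and 12 arrays in 4 groups of 3. The sources used here do not give the software behind them. Every array has a 2% trimmed mean of 500. The number of arrays limits the precision. Signals were taken as log2(signal + 3.9), where 3.9 is the 10th percentile of all signals. This shrinks fold changes of dim probe sets relative to the plain ratio of signals. Where a group lies below background, the fold change depends on the pseudocount and can exceed the bound. The 64 control probe sets were left out, and 27022 probe sets passed the filter at a signal of 65.4. Each of 6 comparisons was fitted with limma 3.58.1 in R 4.3.3 on the 6 arrays of its 2 groups, without a block, with two-sided p-values adjusted by the Benjamini-Hochberg method over all tested probe sets and a threshold of 0.05. The fits were tested on simulated data.

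A gene was represented by its probe set with the highest mean log2 signal among those naming it alone. The annotation gives 34945 probe sets 1 symbol, 932 several and 9160 none; 34741 were found by gene ID in RefSeq GRCm38.p6, and 0 symbols changed. A gene below background (33.7) on every array of a group has a bound: the geometric mean of the brighter group against the background level. The bound makes no allowance for the spread between arrays. An adjusted p printed beside a bound belongs to the limma fit and does not test the bound. The members and lists were chosen with earlier results of these data known. From each list, up to 4 called genes with the largest change between kidney and reference RNA at 10 ng were named, and others are marked as chosen after their values were seen. Alternatives were the pseudocount, filter, normalization, background floor, array weights, all arrays in 1 fit, a replicate block and leaving out each array. Deviations of same-numbered arrays correlated at −0.0629 to 0.0159, and those of other arrays at −0.0289 to 0.0361. The labels do not say that equal numbers pair arrays, and correlations over all tested probe sets cannot exclude it.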

Additional observations from a re-analysis of the deposited data

How the results depend on the processing

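Of 864 fold changes of the 9 tested probe sets of these genes under alternatives, 832 kept their side of the threshold, 25 lost the call, 6 gained it and 1 reversed: Myod1 between kidney and reference RNA at 3 ng was −0.56 (adjusted p = 0.0281, limma) without replicate 2 of the reference at 3 ng, against 0.19 with all arrays and 0.60 without replicate 1. Of the 832, 38 that were called under neither setting changed sign. Leaving out 1 array gave 5 to 6 called genes between kidney and reference RNA at 10 ng, 5 to 6 at 3 ng and 3 to 6 at 0.3 ng, where leaving out kidney replicate 1 or 3 gave 3. Of all tested probe sets, 51.7% to 54.7% were then called at 10 ng, against 60.1% with all arrays. At 3 ng the share was 48.2% to 50.5%, against 56.7%. At 0.3 ng it was 20.4% to 37.9%, against 34.8%, with 20.4% and 20.5% without kidney replicate 1 and 3. Between reference RNA at 0.3 and 10 ng the range was 0 to 1 gene, and 0% to 2.2% of all probe sets. With all 12 arrays in 1 fit, 1 gene (Pax3) was called between 0.3 and 10 ng (5.81% of all probe sets). The same gene was called between 0.3 and 3 ng (5.13%). With signals below background raised to it, 1 (Pax3) was called between 0.3 and 10 ng (2.07%). The causes were not tested. The replicate block gave 6, 5 and 5 called genes between kidney and the reference at 10, 3 and 0.3 ng, with Tnnt2 lost at 10 ng (adjusted p = 0.054). It called 54.2%, 50.1% and 24.6% of all tested probe sets there, against 60.1%, 56.7% and 34.8% without it. In each comparison of inputs it called 0 genes and 0% of all probe sets. Since the replicate numbers are not stated to pair the arrays, the block is no measure of effect size.

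Counts over all probe sets moved more. Between kidney and reference RNA at 0.3 ng, 9414 were called, and 5516 to 5549 without any 1 kidney array. Between reference RNA at 0.3 and 10 ng, 215 were called, against 0 with the replicate block, 76 with no filter, 127 with the filter on the mean, 79 centred, 72 quantile-normalized, 1571 with all arrays in 1 fit, 559 with raised signals, 69 with array weights and 0 to 595 without 1 array. Between 0.3 and 3 ng, 65 were called, against 0, 0, 37, 21, 3, 1386, 122 and 5 in the same order, 32 with a pseudocount of 32 and 0 to 35 without 1 array. Between 3 and 10 ng 0 were called, 1 after centring and 5 with all arrays in 1 fit, and 1085 of 12820 genes had an unadjusted p under 0.05. In kidney against the reference at 3 ng, 5886 were called higher and 9422 lower, or 7550 and 6546 after centring. Signals near the background of 33.7 limit what can be said of Pax7, Acta1, Des and Myod1.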
